A study of Mus musculus with 10 samples.

Results

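The response to CpG of splenic dendritic cells that lack both anaphylatoxin receptors was read from 5 of the 10 arrays of the series. They were the 3 arrays labelled C3ar1-/-C5ar1-/- CpG-stimulated DCs (DKO CpG 1, 2 and 3) and the 2 labelled C3ar1-/-C5ar1-/- unstimulated DCs (DKO unstimulated 1 and 2), chosen by their source label alone. Each array held RNA of CD11c+ cells drawn from mouse spleen with magnetic beads, 4 h after the animal received 100 µg of CpG or the vehicle. The other 5 arrays came from wild-type (WT) mice under the same 2 treatments and serve here for the spread and for 1 comparison. Both DKO groups carry the same C3ar1-/-C5ar1-/- genotype, so the comparison within it shows CpG against vehicle and not the loss of the receptors. The injection reached the whole animal, and the labels give neither strain nor age, nor say whether arrays came from separate animals or pools, so p-values measure only the spread between these samples.

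CpG oligonucleotides carry unmethylated CpG motifs like those of bacterial DNA and are sensed in endosomes by Toll-like receptor 9. The adaptor MyD88 relays the signal to NF-kB and MAP kinases, which drive cytokine and costimulatory genes, and to interferon regulatory factors, which drive type I interferon; the secreted interferon then induces antiviral genes through JAK and STAT proteins. Spleen holds conventional type 1 dendritic cells (cDC1, which cross-present antigen and carry Xcr1), type 2 cells (cDC2) and plasmacytoid cells. C3ar1 and C5ar1 encode the receptors for the complement fragments C3a and C5a.

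All values are log2 intensities per gene, and differences are log2 CpG minus unstimulated, with the standard error of the contrast after ±. C3ar1 stood at 5.64 and 5.27 in the DKO unstimulated arrays and at 5.61, 5.55 and 5.34 in the DKO CpG arrays. C5ar1 stood at 4.42 and 4.56 without CpG and at 4.99, 4.72 and 4.74 with it. All 10 of these values lay near or below the array medians of 5.5 to 5.56, and neither gene passed the test (C3ar1 0.05 ± 0.17, adjusted p = 0.896, and C5ar1 0.33 ± 0.39, adjusted p = 0.673). Against WT, with both treatments averaged, C3ar1 was lower by 0.63 (-0.63 ± 0.12, adjusted p = 0.0888). The matching value of C5ar1 was -1.53 ± 0.27 (adjusted p = 0.0786), and neither passed. Where these probes lie with respect to the deletions was not known here, so the values do not check the labels. Of the DC markers, Itgax, which encodes CD11c, was well above the array medians at 11.89 and 11.85 without CpG and 11.23, 11.49 and 11.59 with it, and the MHC class II chain H2-Ab1 lay between 13.53 and 13.68 in all 5 arrays. The sample titles fall into runs of numbers, with 17 to 19 holding DKO unstimulated 1, CpG 1 and CpG 2, and 23 and 24 holding DKO unstimulated 2 and CpG 3. Xist, which is transcribed from the inactive X chromosome, was 10.80 and 10.54 in titles 23 and 24 and at most 4.91 in titles 17 to 19, while mean Y-linked levels were 3.39 and 3.40 against 7.33 to 7.93. In the WT arrays the mean Y-linked level was 3.21 to 3.68, near that of titles 23 and 24. Comparisons of DKO with WT therefore also differ in this signal. Red pulp macrophage markers were also lower in titles 23 and 24, with median differences from titles 17 to 19 of -1.42 without CpG and -1.70 with it, and with 17 of 22 markers lower by over 1 in both. Each run holds both treatments, so every change could be read within each run.

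At an adjusted p under 0.05, 607 genes rose and 770 fell among 13371 tested (10.3% called, with 4.54% higher and 5.76% lower). The rises were larger than the falls: 44 genes rose 4-fold or more and 2 fell that far, and at 2-fold or more 254 rose and 127 fell (2.85% of genes in both directions). The median change was 0.89 for called rises, -0.70 for called falls and -0.04 over all genes tested. After centring each array on the median of its tested genes, the split turned to 771 higher and 497 lower, so the share of higher calls rose from 44.1% to 60.8%. In all 1377 called genes the DKO CpG arrays did not overlap the DKO unstimulated arrays, a pattern found in 37.7% of all genes tested. Groups that do not overlap must change the same way within both title runs. All 1377 therefore did so (65.6% of all genes did), which adds no further support. Called rises had medians of 0.88 in titles 17 to 19 and 0.88 in titles 23 and 24. The falls had medians of -0.74 and -0.59 in these runs. The number called depended on single arrays: it was 773 without DKO unstimulated 1, 423 without DKO unstimulated 2, 735 without DKO CpG 1 and 1909 without DKO CpG 3, it was 402 in a fit of the DKO arrays alone, and 275 genes were called in each of the 5 fits that left out 1 DKO array.

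**Figure D1:**
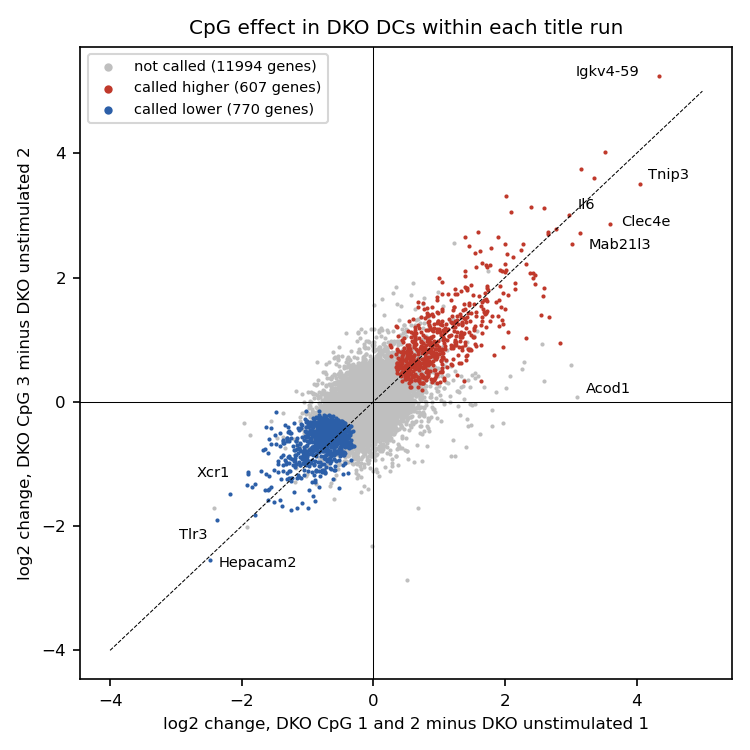
The CpG effect within each title run, with the log2 difference in titles 17 to 19 (mean of DKO CpG 1 and 2 minus DKO unstimulated 1) on the x axis and in titles 23 and 24 (DKO CpG 3 minus DKO unstimulated 2) on the y axis. Each point is 1 of the 13371 genes, red where called higher, blue where called lower and grey otherwise, and the dashed line marks equal change. Called genes such as Tnip3 and Tlr3 moved alike in both runs. Acod1 was higher with CpG by 3.10 in titles 17 to 19 and by 0.08 in titles 23 and 24, and was not called.

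The top of the response joined cytokines, feedback regulators and antiviral genes. Tnip3, which encodes an A20-binding inhibitor of NF-kB, stood at 6.39 and 6.25 in the DKO unstimulated arrays and at 10.19, 10.68 and 9.77 after CpG. All 3 CpG values were far above both unstimulated values, a difference of 3.89 ± 0.36 or 14.9-fold (adjusted p = 0.000347). Mab21l3, a gene of the Mab21 family, measured 8.10 and 8.12 without CpG and 11.30, 11.20 and 10.84 with it, a rise of 3.00 ± 0.16 or 8.02-fold (adjusted p = 2.15e-05). Its arrays were tightly grouped on both sides. Slamf1, a self-binding receptor of the SLAM family on activated cells, went from 5.77 and 5.93 to 8.63, 8.93 and 8.48 (2.83 ± 0.27, 7.12-fold). Car13, a cytosolic carbonic anhydrase, went from 5.80 and 5.42 to 8.69, 8.22 and 8.14 (2.74 ± 0.29, 6.70-fold). In both genes the lowest CpG array stayed more than 2 log2 units above the highest unstimulated array.

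Clec4e, the lectin receptor Mincle, had the second largest rise outside immunoglobulin segments, with a wide spread. It measured 6.48 and 4.95 without CpG and 10.30, 9.88 and 7.81 with it, so the groups did not overlap but DKO CpG 3 lay nearer to DKO unstimulated 1 than to the other CpG arrays. Its difference was 3.61 ± 0.80 (adjusted p = 0.0189), and the adjusted p was 0.149 without DKO unstimulated 2, 0.0627 without DKO CpG 1 and 0.0543 without DKO CpG 2. Marco, a scavenger receptor of marginal zone macrophages, had the same order of arrays, at 7.09 and 5.73 and then 10.12, 9.24 and 7.56. Its rise of 2.56 ± 0.65 was lost without DKO unstimulated 2 (adjusted p = 0.225), DKO CpG 1 (0.0841) or DKO CpG 2 (0.0809). Within each treatment both genes were lowest in the array of titles 23 and 24, where red pulp macrophage markers were low as well, and their part in these values was not tested.

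**Figure D2:**
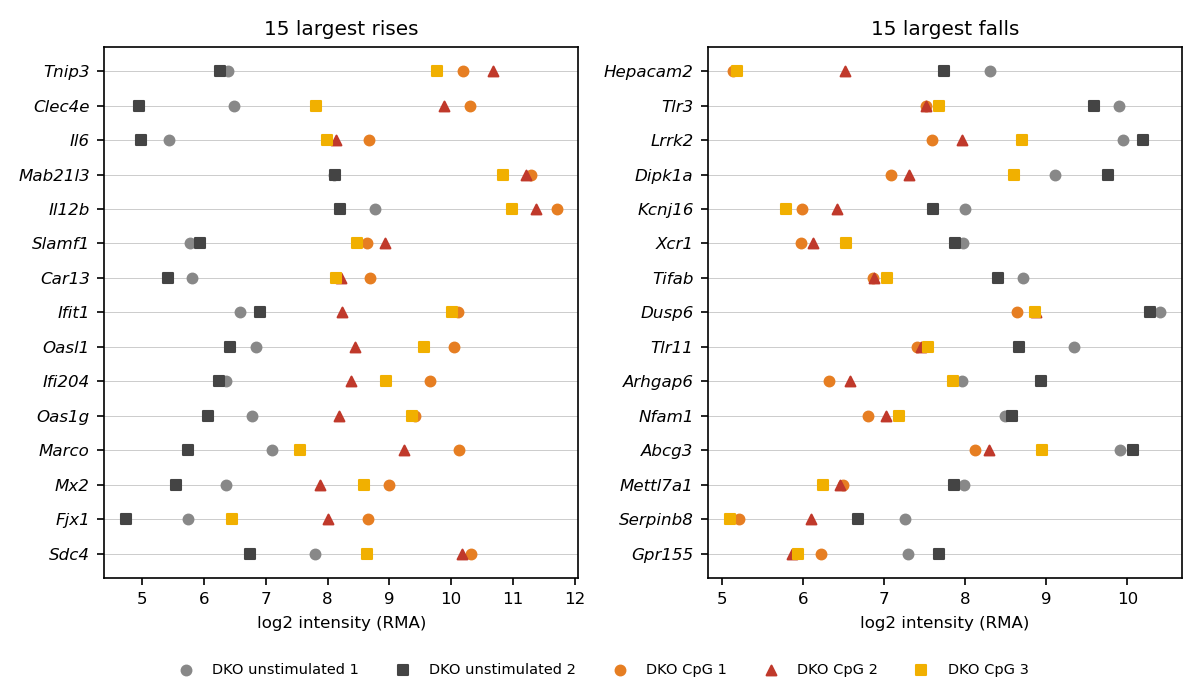
Levels of the 15 largest rises (left) and 15 largest falls (right) in each DKO array, leaving out immunoglobulin variable segments, predicted genes and small RNAs, with log2 RMA intensity on the x axis and 1 gene per line, in order of change from the top. Grey and black points are the DKO unstimulated arrays and coloured points the DKO CpG arrays. Genes were chosen among those whose groups do not overlap, so no CpG point could lie between the unstimulated points. Clec4e, Marco, Fjx1 and Sdc4 have DKO CpG 3 closest to the unstimulated side.

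Among 29 cytokine genes tested, 9 rose and 2 fell (37.9% called), with a median of 0.66 over the list. The 10.3% called among all genes is the share to set beside the counts of this and the following lists. Il6, the pleiotropic inflammatory cytokine, stood at 5.43 and 4.98 in the DKO unstimulated arrays and at 8.67, 8.14 and 7.99 in the CpG arrays. Every CpG array was more than 2 log2 units higher, a rise of 3.06 ± 0.27 or 8.34-fold (adjusted p = 0.000296). Il12b, which encodes the p40 chain shared by IL-12 and IL-23, measured 8.77 and 8.20 without CpG and 11.71, 11.37 and 10.98 with it. It rose by 2.87 ± 0.32 or 7.29-fold (adjusted p = 0.000772). Both chains of IL-27 rose: Il27, the p28 chain, from 7.09 and 7.05 to 9.75, 9.28 and 9.04 (2.29 ± 0.22, 4.89-fold), and Ebi3, its partner chain, from 6.49 and 6.65 to 7.75, 7.86 and 8.07 (1.33 ± 0.12). Il1rn, the antagonist of the IL-1 receptor, went from 7.59 and 7.14 to 10.01, 9.72 and 9.68 (2.44 ± 0.19, adjusted p = 0.000151).

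Tnf, an early inflammatory cytokine, stood at 9.10 and 9.69 without CpG and at 12.02, 11.52 and 11.06 with it, a rise of 2.14 ± 0.27 or 4.41-fold. Tnfsf9, the ligand of the T cell receptor 4-1BB, went from 8.88 and 8.82 to 11.12, 10.96 and 10.73 (2.09 ± 0.20, adjusted p = 0.000347). In all 7 of these cytokines the groups did not overlap, as in every called gene, and no setting tried ended a call. The cytokines that fell were Ltb, lymphotoxin beta, by 0.87 (-0.87), and Tgfb1 by 0.68 (-0.68), and neither call held without DKO unstimulated 2 (adjusted p = 0.157 for Ltb and 0.0875 for Tgfb1). Ifnb1, which encodes interferon beta, measured 3.90 and 3.96 without CpG, below the array median, and 5.60, 5.07 and 4.31 with it. It did not pass the test (1.06, adjusted p = 0.126) but did without DKO CpG 3 (adjusted p = 0.0286). Over the 29 genes, 22 were lowest among the CpG arrays in DKO CpG 3, and their median over the unstimulated mean was 1.27, 0.71 and 0.38 in DKO CpG 1, 2 and 3. Neutrophil markers (17 of 20 lowest in DKO CpG 3, with medians of 1.06, 0.98 and -0.15) and red pulp macrophage markers (21 of 22) had their lowest values in the same array, and their part in the cytokine values was not tested. Without DKO CpG 3, 15 cytokines were called higher.

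Of 24 chemokine genes 10 rose, with a median of 0.69, and none was called lower (0 of 24 also at an unadjusted p under 0.05). Cxcl10, an interferon-inducible ligand of Cxcr3, measured 6.52 and 6.002 without CpG and 8.76, 7.46 and 8.73 with it, a rise of 2.06 ± 0.41 (adjusted p = 0.0124). The call ended without DKO unstimulated 2 (adjusted p = 0.101). Cxcl2, a neutrophil attractant, went from 7.48 and 6.24 to 9.43, 9.39 and 8.10 (2.11 ± 0.51), a call that ended without DKO unstimulated 2 (adjusted p = 0.209), DKO CpG 1 (0.0858) or DKO CpG 2 (0.0763). The 2 ligands of Ccr4 on T cells moved with less spread. Ccl17 stood at 5.58 and 5.49 and then at 7.56, 6.95 and 6.99 (1.63 ± 0.24), and Ccl22 at 6.84 and 6.47 and then at 7.99, 7.75 and 7.72, a rise of 1.17. Ccl3, an inflammatory CC chemokine, was already at 10.53 and 10.54 and reached 11.91, 11.75 and 11.42, a rise of 1.16. No setting tried ended the calls of Ccl3, Ccl17 and Ccl22, while the list's count fell to 7 without DKO unstimulated 1, 3 without DKO unstimulated 2 and 6 without DKO CpG 1.

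Of 35 costimulatory and checkpoint ligands 16 rose and 3 fell, with a median of 0.33. Cd40, the receptor through which helper T cells license dendritic cells, stood at 8.53 and 8.91 without CpG and at 11.14, 10.77 and 10.98 with it. It rose by 2.24 ± 0.22 or 4.73-fold (adjusted p = 0.00037), with every CpG array far above both unstimulated arrays. Icosl, the ligand of ICOS, went from 8.46 and 8.56 to 9.61, 9.62 and 9.62 (1.10 ± 0.11, adjusted p = 0.000396). Il2ra, the alpha chain of the IL-2 receptor, rose by 1.79 ± 0.21, from 6.67 and 6.48 to 8.78, 7.996 and 8.31. Cd70, the ligand of CD27, went from 4.67 and 5.10 to 7.08, 6.13 and 6.62 (1.73 ± 0.28). Tnfrsf9, the receptor of Tnfsf9, went from 6.57 and 6.42 to 8.45, 8.13 and 7.85 (1.65 ± 0.19), so receptor and ligand rose in the same arrays. Ligands that restrain T cells rose as well: Cd274 (PD-L1) from 8.92 and 9.02 to 10.26, 10.23 and 10.09 (1.23 ± 0.12), and Pdcd1lg2 (PD-L2) from 7.35 and 7.73 to 8.75, 8.42 and 8.73 (1.09 ± 0.16). Cd276 rose by 1.09 and Pvr, a ligand of CD226 and TIGIT, by 1.41. The 2 classical B7 ligands moved less: Cd80 from 9.97 and 10.15 to 10.65, 10.78 and 11.01 (0.75 ± 0.13, adjusted p = 0.00648, or 0.0572 in a fit of the DKO arrays alone), and Cd86 from 11.52 and 11.47 to 12.02, 12.02 and 11.93 (0.50 ± 0.11). The call of Cd86 ended without either unstimulated array (adjusted p = 0.0739 and 0.119), DKO CpG 1 (0.0647) or DKO CpG 2 (0.0592).

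NF-kB subunits and their feedback regulators had the highest share of members called, 19 of 29 higher and 0 lower (22 higher and 1 lower at an unadjusted p under 0.05 in limma), with a median of 0.65. Bcl3, an atypical IkB protein that works with p50 and p52, stood at 7.69 and 7.62 without CpG and at 9.25, 9.57 and 9.47 with it (1.78 ± 0.13, adjusted p = 0.000151). Cflar, which encodes the caspase-8 inhibitor cFLIP, went from 8.65 and 8.67 to 10.31, 10.40 and 10.33 (1.69 ± 0.11, adjusted p = 0.000127). In both genes the 3 CpG arrays lay close together and well above the unstimulated pair. Nfkbiz, a nuclear IkB protein needed for secondary response genes such as Il6, rose from 9.42 and 9.21 to 10.72, 10.50 and 10.48 (1.25 ± 0.16). Nfkbia, the classical inhibitor IkB alpha, rose from 11.31 and 11.16 to 12.18, 11.95 and 12.10 (0.84 ± 0.13). Tnip1, another partner of A20, rose by 0.94 and Birc3, the ubiquitin ligase cIAP2, by 0.80. The subunits moved less, with Rela at 0.61 and Nfkb2 at 0.65, and both calls ended without DKO unstimulated 2 (adjusted p = 0.105 and 0.067). The list's count was 11 without that array.

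Of 27 genes of the Toll-like receptor 9 pathway 4 rose and 0 fell (15 and 1 at an unadjusted p under 0.05), with a median of 0.32. This share of 14.8% called stands beside 10.3% of all genes. Tlr9 itself measured 9.77 and 9.87 without CpG and 10.34, 9.83 and 10.17 with it, and its groups overlapped (0.29, adjusted p = 0.375). The called rises were Ikbke, a kinase of the interferon pathway, at 1.61, Traf6 at 0.86, Myd88 at 0.78 and Pik3ap1, an adaptor of PI3 kinase, at 0.56. None of the 4 was called without DKO unstimulated 2 (the list's count was then 0, with adjusted p = 0.0949, 0.0888, 0.0608 and 0.136 in that order), 2 members were called without DKO unstimulated 1, and 9 members were called without DKO CpG 3.

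Interferon-stimulated antiviral effectors gave the largest count of rises among the lists. Of 63 tested, 35 rose, 32 of them 2-fold or more, and 0 fell (48 higher and 0 lower at an unadjusted p under 0.05), with a median of 1.13. Oasl1, an OAS-like protein that restrains translation of Irf7, stood at 6.84 and 6.42 without CpG and at 10.05, 8.44 and 9.55 with it (2.71 ± 0.38). Ifi204, a DNA-binding protein of the p200 family, went from 6.36 and 6.24 to 9.66, 8.37 and 8.94 (2.69 ± 0.31, adjusted p = 0.000897). Oas1g, an oligoadenylate synthetase that feeds RNase L, went from 6.78 and 6.06 to 9.42, 8.18 and 9.37 (2.57 ± 0.38). In all 3 genes DKO CpG 2 was the lowest of the CpG arrays, though above both unstimulated arrays. Ifit1, which binds RNA without a methylated cap, had the same order, from 6.58 and 6.90 to 10.11, 8.24 and 10.02 (2.71 ± 0.50, adjusted p = 0.00853), and its call ended without either unstimulated array (adjusted p = 0.0558 and 0.0507).

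Further effectors kept their calls under every setting tried. Eif2ak2, the RNA-activated kinase PKR, rose from 6.16 and 6.36 to 8.33, 7.38 and 8.11, a change of 1.68. Rtp4 rose from 7.86 and 8.41 to 10.11, 9.43 and 10.05 (1.73 ± 0.25), and Slfn2, a Schlafen protein tied to T cell and myeloid quiescence, from 8.73 and 9.26 to 10.79, 10.60 and 10.52 (1.64 ± 0.17). Slfn5 at 1.65, Parp14, a mono-ADP-ribosyltransferase, at 1.57, and the membrane proteins Ifitm1 at 1.27 and Ifitm2 at 1.06 were also in this set. Of 11 interferon-inducible GTPases 7 rose, each 2-fold or more, and 0 fell (9 and 0 at an unadjusted p under 0.05), with a median of 1.15. These proteins coat pathogen vacuoles. Gbp5 was at 7.59 in both unstimulated arrays and at 10.21, 8.97 and 9.67 after CpG (2.03 ± 0.31, adjusted p = 0.00373), and Gbp4 went from 8.13 and 8.58 to 10.36, 9.51 and 9.96 (1.59 ± 0.25). The number of GTPases called was 3 without either unstimulated array and 4 without DKO CpG 1.

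The 3 CpG arrays did not carry the interferon genes equally. Among the 63 effectors, 57 (90.5%) were lowest in DKO CpG 2, against 29.1% of all genes and 35.4% of all called rises, and 43 lay more than 0.5 below both other CpG arrays there. Their median over the unstimulated mean was 1.55 in DKO CpG 1, 0.52 in DKO CpG 2 and 1.41 in DKO CpG 3. All 11 GTPases were lowest in DKO CpG 2, with medians of 1.68, 0.60 and 1.15. NF-kB genes showed no such gap, with medians of 0.61, 0.62 and 0.58, and the cytokines were lowest in DKO CpG 3 instead. Irf7, the regulator that amplifies type I interferon, measured 9.27 and 8.94 without CpG and 10.83, 9.24 and 10.62 with it, so DKO CpG 2 lay between the unstimulated arrays. It did not pass the test (1.12, adjusted p = 0.0928) and passed without DKO CpG 2 (1.62, adjusted p = 0.00216). Without DKO CpG 2, 47 effectors were called, and 14, 15 and 19 were called without DKO unstimulated 1, DKO unstimulated 2 and DKO CpG 1. DKO CpG 1 and 2 share a title run and a high Y-linked level, so the gap between them lies within that run.

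**Figure D3:**
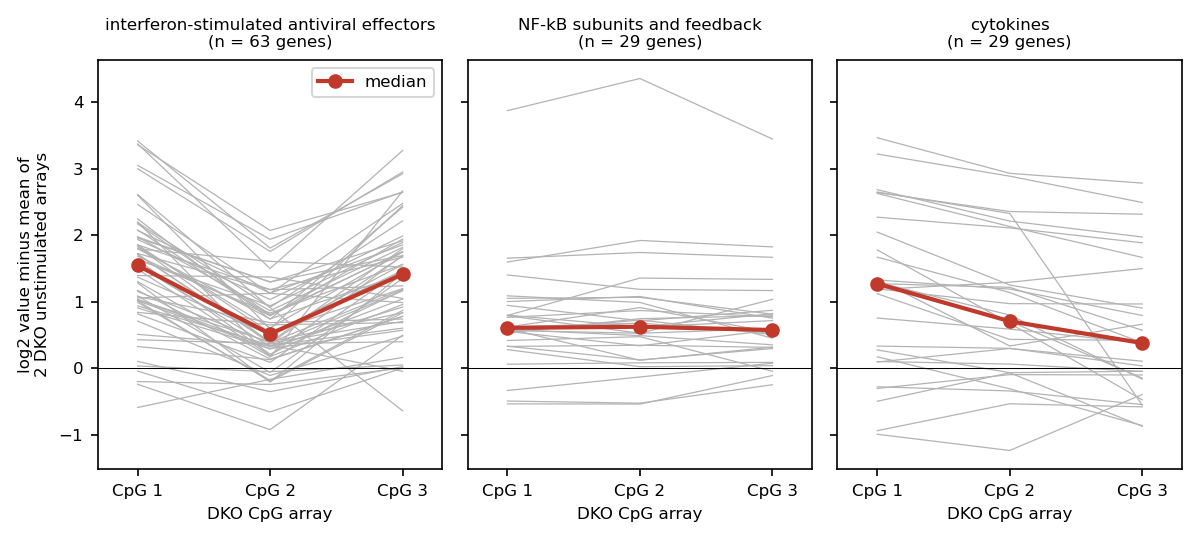
The change of each gene in each DKO CpG array, as its log2 value minus the mean of the 2 DKO unstimulated arrays (y axis), for 63 interferon-stimulated effectors, 29 NF-kB genes and 29 cytokines (grey lines, with the median in red). The effectors dip in CpG 2 (median 0.52 between 1.55 and 1.41), the NF-kB genes stay level and the cytokine median falls to 0.38 in CpG 3.

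Promoters of 6 members that the results turn on are printed here from RefSeq (GRCm38.p6), each as the 250 bases before the gene's start, 5′ to 3′ on the gene's strand. They show where 3 motifs of the response lie in induced genes and in a gene that fell. Capitals mark matches, on either strand, to the interferon-stimulated response element (ISRE: GAAA, any 2 bases, GAAA), the kB motif (GGGA, any 2 bases, TTCC) or the AP-1 motif TGANTCA. Ifit1 lies at chr19:34640639-34640888 (+), Cxcl10 at chr5:92348890-92349139 (-), Gbp5 at chr3:142496684-142496933 (+), Il6 at chr5:30012864-30013113 (+), Cxcl2 at chr5:90903649-90903898 (+) and Tlr3 at chr8:45410381-45410630 (-).
Ifit1: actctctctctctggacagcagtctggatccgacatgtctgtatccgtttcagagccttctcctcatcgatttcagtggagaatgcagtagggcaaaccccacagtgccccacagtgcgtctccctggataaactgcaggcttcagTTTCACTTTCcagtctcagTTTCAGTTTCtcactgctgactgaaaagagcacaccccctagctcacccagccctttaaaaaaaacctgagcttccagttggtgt
Cxcl10: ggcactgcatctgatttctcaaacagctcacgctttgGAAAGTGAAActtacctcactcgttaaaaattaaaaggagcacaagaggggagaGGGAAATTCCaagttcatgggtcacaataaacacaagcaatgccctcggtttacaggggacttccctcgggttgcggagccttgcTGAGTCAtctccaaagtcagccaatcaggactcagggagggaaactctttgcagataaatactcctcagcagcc
Gbp5: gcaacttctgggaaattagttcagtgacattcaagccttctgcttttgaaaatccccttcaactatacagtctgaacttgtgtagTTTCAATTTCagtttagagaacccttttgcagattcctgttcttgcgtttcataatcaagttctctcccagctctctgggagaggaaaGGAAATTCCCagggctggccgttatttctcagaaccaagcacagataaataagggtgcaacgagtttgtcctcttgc
Il6: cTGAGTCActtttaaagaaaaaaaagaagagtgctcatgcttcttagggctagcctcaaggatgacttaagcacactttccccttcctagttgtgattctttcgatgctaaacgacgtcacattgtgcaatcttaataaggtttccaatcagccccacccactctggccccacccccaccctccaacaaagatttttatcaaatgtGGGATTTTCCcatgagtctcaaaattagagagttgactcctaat
Cxcl2: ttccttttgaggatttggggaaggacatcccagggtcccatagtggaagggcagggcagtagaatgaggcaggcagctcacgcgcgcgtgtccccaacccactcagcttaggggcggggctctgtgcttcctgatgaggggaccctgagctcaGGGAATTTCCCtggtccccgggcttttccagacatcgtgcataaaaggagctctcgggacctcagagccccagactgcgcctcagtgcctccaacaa
Tlr3: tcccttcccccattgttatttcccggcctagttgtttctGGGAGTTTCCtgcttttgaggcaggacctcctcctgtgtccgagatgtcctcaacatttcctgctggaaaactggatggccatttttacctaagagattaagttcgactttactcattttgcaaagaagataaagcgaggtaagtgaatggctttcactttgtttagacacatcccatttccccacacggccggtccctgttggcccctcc

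Ifit1 held a pair of ISRE matches, at -104 and -85 (the first base of the match, counted from the gene's start). Cxcl10 held all 3 motifs, with an ISRE match at -213, a kB match at -159 and an AP-1 match at -74. Gbp5 held an ISRE match at -165 and a kB match at -77, Il6 a kB match at -44 and an AP-1 match at -249, and Cxcl2 overlapping kB matches at -97 and -96. Tlr3, which fell, held a kB match at -211. Over the 300 bases from 250 before to 50 after the start, ISRE matches were found in 3.83% of the 10478 tested genes with a promoter sequence, 15.2% of 197 rises of 2-fold or more, 5.99% of 284 smaller rises, 6.80% of 103 falls of 2-fold or more and 2.44% of 532 smaller falls. The kB motif was found in 1.77% of all, 4.06% of the larger rises and 2.91% of the larger falls, and AP-1 in 6.76%, 14.2% and 10.7%. The cyclic AMP element TGACGTCA was found in 3.28% of all genes and 2.03% of the larger rises, and the E2F motif TTTGGCGC in 1.05% and 0.508%. Within lists, an ISRE match was found in 43.1% of 51 effectors and in all 6 GTPases with a promoter, a kB match in 23.5% of 17 chemokines and 18.2% of 22 cytokines, and an AP-1 match in 38.5% of 26 costimulatory genes. These shares describe letters in a window and not binding.

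**Figure D4:**
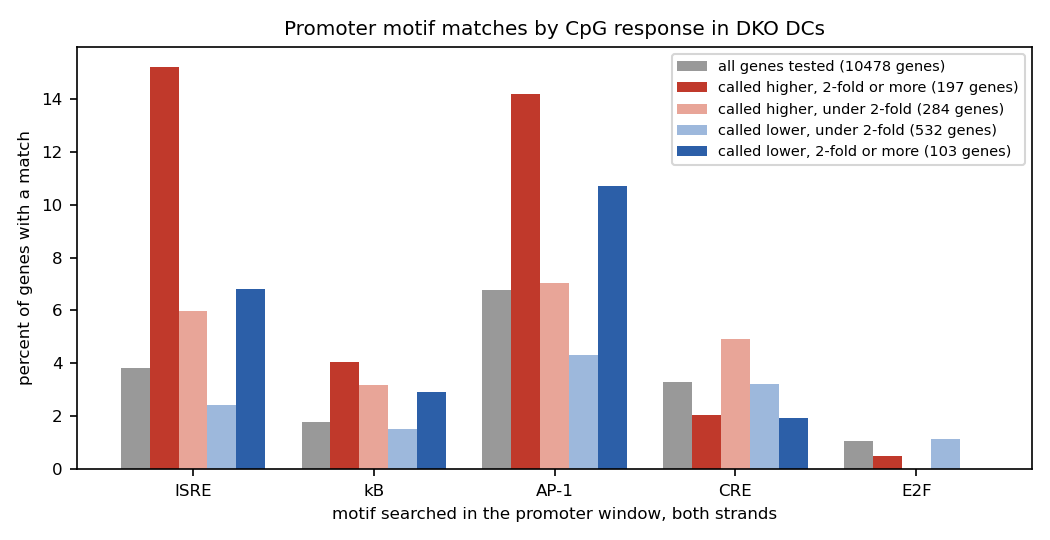
Percent of genes (y axis) with a match to each of 5 motifs (x axis) in the 300-base promoter window, for all tested genes with a promoter and for genes called higher or lower, split at 2-fold. ISRE and AP-1 bars are tallest for rises of 2-fold or more, at 15.2% and 14.2%.

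Receptors for other microbial products moved in both directions, with 7 of 31 higher and 5 lower (1 and 3 without DKO unstimulated 1). The cytosolic RNA sensor Ifih1, also called MDA5, rose from 8.93 and 9.53 to 11.15, 10.26 and 10.84 (1.51 ± 0.27), a call that ended without DKO unstimulated 1 (adjusted p = 0.0608). Endosomal Tlr3, the sensor of double-stranded RNA and a cDC1 gene, had the second largest fall among called genes. It stood at 9.90 and 9.59 without CpG and at 7.51, 7.52 and 7.68 with it, a fall of 2.17 (-2.17 ± 0.25, 4.50-fold lower, adjusted p = 0.00098). Tlr11, a sensor of parasite profilin, went from 9.34 and 8.67 to 7.41, 7.46 and 7.54 (-1.54 ± 0.23, adjusted p = 0.00327). Cd180, a Toll-like receptor relative on B cells and dendritic cells, went from 9.29 and 9.83 to 8.13, 8.04 and 8.37 (-1.38 ± 0.18). All 3 were lower in every CpG array than in either unstimulated array, as was every called fall.

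The largest fall was that of Hepacam2, a membrane protein of the immunoglobulin family. It stood at 8.30 and 7.73 without CpG and at 5.13, 6.52 and 5.18 with it (-2.41 ± 0.38, 5.31-fold lower, adjusted p = 0.00404). Lrrk2, a leucine-rich repeat kinase, went from 9.95 and 10.20 to 7.59, 7.96 and 8.70 (-1.99 ± 0.28, 3.97-fold lower). Kcnj16, a potassium channel, went from 8.002 and 7.61 to 5.99, 6.42 and 5.79 (-1.74 ± 0.20). These 3 genes fell in every CpG array, with the least fall in DKO CpG 2 for Hepacam2 and Kcnj16 and in DKO CpG 3 for Lrrk2. Tifab, a relative of the TRAF6 activator TIFA, went from 8.71 and 8.41 to 6.86, 6.88 and 7.04, a change of -1.63. Mettl7a1 went from 7.99 and 7.86 to 6.49, 6.46 and 6.25 (-1.53 ± 0.13, adjusted p = 0.000259). Abcg3, an ABC transporter, fell by 1.53 (-1.53 ± 0.22), Nfam1, an ITAM receptor, by 1.53 (-1.53 ± 0.20), Gpr155 by 1.48 (-1.48) and Rnf144b, a ubiquitin ligase, by 1.46 (-1.46).

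Genes that mark cDC1 fell more often than they rose, with 8 of 20 lower and 3 higher and a median of -0.47. Xcr1, the chemokine receptor that defines the lineage, stood at 7.97 and 7.87 without CpG and at 5.97, 6.12 and 6.53 with it (-1.71 ± 0.18, 3.28-fold lower, adjusted p = 0.000621). Irf8, the factor on which the lineage depends, went from 11.35 and 10.82 to 10.28, 10.19 and 10.05, a change of -0.91 (adjusted p = 0.0543 in a fit of the DKO arrays alone). Snx22, a sorting nexin, went from 8.76 and 8.56 to 7.52, 7.51 and 7.28 (-1.22 ± 0.13). As in every called gene, the groups of these genes did not overlap. Batf3, the partner of Irf8, measured 10.79 and 10.54 and then 10.99, 10.65 and 10.87 and did not pass the test (0.18 ± 0.15, adjusted p = 0.551). Against the falls, Ly75, the endocytic receptor DEC-205, rose from 8.19 and 8.32 to 10.24, 10.07 and 10.07 (1.87 ± 0.13, adjusted p = 0.000141), and Ifi205 rose from 10.20 and 9.95 to 11.80, 11.25 and 11.31 (1.38 ± 0.16). In these bulk samples fewer cells of a type and less RNA per cell cannot be told apart.

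Of 20 cDC2 markers 5 fell and 0 rose (8 lower and 0 higher at an unadjusted p under 0.05), with a median of -0.29. The largest of these falls was that of Cd209a, a lectin receptor, from 10.20 and 9.90 to 8.05, 9.16 and 9.30 (-1.21 ± 0.30, adjusted p = 0.0319), and its call ended without DKO unstimulated 1 (adjusted p = 0.154) or DKO unstimulated 2 (0.0996). Sirpa, which defines the type, measured 10.83 and 10.73 and then 10.97, 10.78 and 10.44, with groups that overlapped. The count of cDC2 falls was 2 without DKO unstimulated 1, 0 without DKO unstimulated 2 and 1 without either DKO CpG 1 or DKO CpG 2. Among 15 markers of conventional DCs 2 rose and 3 fell, and among 15 of plasmacytoid cells 0 rose and 1 fell (1 and 2 at an unadjusted p under 0.05). Ccr7, the receptor that guides mature cells to lymphoid T zones, rose from 10.14 and 9.99 to 11.41, 11.07 and 11.14 (1.14 ± 0.14). Fscn1, the actin bundler of mature dendritic cells, rose from 8.09 and 7.98 to 9.67, 9.29 and 10.003 (1.62 ± 0.21), so both maturation genes were higher in every CpG array.

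Transcription factors of lineage and early response split by gene. Of 43 DC lineage factors 7 rose and 4 fell. Prdm1, the repressor Blimp-1, went from 7.04 and 7.44 to 8.66, 9.23 and 8.65 (1.61 ± 0.19), and Etv3, an ETS repressor, from 9.78 and 9.81 to 10.94, 11.15 and 11.13 (1.28 ± 0.15). Of 34 immediate-early factors 4 rose and 7 fell. Batf, an AP-1 factor of immune cells, rose from 8.02 and 7.34 to 9.96, 9.99 and 9.44 (2.12 ± 0.24, adjusted p = 0.000788). The nuclear receptor Nr4a2 fell from 10.27 and 10.29 to 9.38, 9.41 and 9.18 (-0.96 ± 0.15), Klf4 from 9.88 and 9.64 to 9.05, 8.84 and 8.71 (-0.89 ± 0.15) and Fosb from 12.26 and 12.23 to 11.62, 11.51 and 11.51 (-0.70 ± 0.11). Each of these falls was present in every CpG array, as was every called fall. The MAP kinase list had 6 of 33 higher and 4 lower, and its phosphatases went opposite ways: Dusp6, which inactivates ERK, fell from 10.41 and 10.28 to 8.64, 8.88 and 8.86 (-1.55 ± 0.13, 2.93-fold lower, adjusted p = 0.000259), while Dusp2 rose from 9.93 and 10.10 to 11.29, 11.08 and 11.05 (1.13 ± 0.14). Mapk14, the kinase p38 alpha, fell from 9.57 and 9.79 to 8.29, 8.41 and 8.77 (-1.19 ± 0.16), and Spred1, an inhibitor of Ras and ERK signalling, rose by 0.87. Without DKO unstimulated 2 the immediate-early list had 1 higher and 3 lower, the MAP kinase list 2 and 2, and the DC factors 2 and 0. The DC factors had 4 and 0 without DKO CpG 1 and 6 and 0 without DKO CpG 2, and the MAP kinase list 4 and 2 without either of those arrays or DKO unstimulated 1.

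Cytokine receptors and their signalling genes had 12 of 52 higher and 3 lower. Socs3, which limits STAT3 signalling, stood at 6.70 and 5.31 without CpG and at 7.90, 8.42 and 7.83 with it (2.04 ± 0.35). Il18rap, a chain of the IL-18 receptor, went from 5.47 and 4.62 to 7.17, 7.23 and 6.78 (2.02 ± 0.26). Ptpn1, a phosphatase of JAK kinases, went from 8.11 and 8.02 to 9.73, 9.85 and 9.47 (1.62 ± 0.14, adjusted p = 0.000259). These 3 inhibitors and receptors were higher in every CpG array, as was every called rise. Stat5a rose from 7.27 and 7.74 to 9.06, 8.76 and 8.85 (1.39 ± 0.19), Il7r by 1.23 and Il13ra1 by 1.04. Ifngr1, the ligand-binding chain of the interferon gamma receptor, fell from 11.49 and 11.47 to 10.39, 10.82 and 10.70 (-0.85 ± 0.14). The 37 chemotactic receptors had 3 higher and 7 lower; beside Xcr1, the nucleotide receptor P2ry6 fell from 8.91 and 8.73 to 7.46, 7.84 and 7.61 (-1.18 ± 0.18). Without DKO unstimulated 2 the cytokine receptor list had 6 higher and 2 lower and the chemotactic list 1 and 3.

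Among genes of survival and cell death, 5 of 24 BCL2 family members and caspases rose and 0 fell (7 and 1 at an unadjusted p under 0.05). Casp4, the caspase that senses cytosolic lipopolysaccharide, went from 8.20 and 7.82 to 10.39, 10.27 and 10.14 (2.26 ± 0.18, adjusted p = 0.000224). Bcl2l11, the death-promoting protein Bim, went from 9.02 and 8.18 to 10.56, 10.62 and 10.35 (1.91 ± 0.21), and Bcl2l1, the survival protein Bcl-xL, from 6.15 and 5.40 to 7.74, 7.36 and 7.51 (1.76 ± 0.24). Members with opposite roles thus rose in the same arrays, and the list's count was 3 without either unstimulated array or DKO CpG 1. Among 58 cell cycle and replication genes 9 fell and 3 rose, with a median of -0.39. The falls included Prc1, a spindle protein of cytokinesis, from 7.41 and 7.50 to 6.77, 6.54 and 6.62 (-0.81 ± 0.12). The cyclin Ccnd2 rose from 9.75 and 9.84 to 12.08, 11.27 and 11.97 (1.98 ± 0.25), and its partner kinase Cdk6 from 8.05 and 7.44 to 9.03, 9.08 and 8.70 (1.19 ± 0.19). The related cyclin Ccnd1 fell from 10.24 and 10.79 to 9.50, 8.98 and 9.95 (-1.04 ± 0.25, adjusted p = 0.0276), a call lost without DKO unstimulated 2 (adjusted p = 0.202), DKO CpG 1 (0.0698) or DKO CpG 2 (0.0576). Falls in this list numbered 1 without DKO unstimulated 2, 2 without DKO CpG 1, 4 without DKO unstimulated 1 or DKO CpG 2, and 22 without DKO CpG 3.

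Adhesion and actin genes had 12 of 47 higher and 3 lower. Nrp2, a co-receptor of semaphorins, went from 6.26 and 5.97 to 8.66, 8.63 and 8.04 (2.33 ± 0.21, adjusted p = 0.000317). Mmp14, a membrane-bound matrix protease, went from 7.16 and 6.95 to 9.04, 8.72 and 8.39 (1.66 ± 0.18), and Itga5, a fibronectin receptor chain, from 7.35 and 6.90 to 8.98, 9.03 and 8.27 (1.63 ± 0.24). Icam1, the ligand of LFA-1, rose from 10.73 and 10.49 to 11.95, 11.95 and 11.62 (1.23 ± 0.15). All 4 were lowest in DKO CpG 3 among the CpG arrays, yet above both unstimulated arrays. Over the 47 genes, 36.2% were lowest in that array, near the 36.7% of all genes and below the 44.5% of called rises. Without DKO unstimulated 2 the list had 7 higher and 0 lower.

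Among metabolic lists, 35.7% of sterol genes were called. The shares of 12.5% of glycolytic and 11.1% of redox genes lay near the 10.3% of all genes. Of 24 genes of glycolysis and glucose transport 3 rose and 0 fell (4 and 2 at an unadjusted p under 0.05), with 1 rise without DKO unstimulated 2 and 2 without DKO CpG 1. Pfkfb3, which makes the activator of phosphofructokinase, went from 9.09 in both unstimulated arrays to 10.39, 10.03 and 10.10 (1.08 ± 0.14). Of 28 sterol genes 7 rose and 3 fell; Pmvk, phosphomevalonate kinase, went from 8.53 and 8.72 to 9.91, 9.88 and 9.81 (1.24 ± 0.14), and 1 rise and 1 fall were called without DKO unstimulated 2, and 4 rises and 0 falls in each fit without DKO unstimulated 1, DKO CpG 1 or DKO CpG 2. Of 36 genes of amino acid, itaconate and redox metabolism 4 rose and 0 fell (11 and 4 at an unadjusted p under 0.05), among them Txnrd1, thioredoxin reductase, from 9.10 and 8.65 to 9.90, 10.11 and 9.71 (1.03 ± 0.16). The rises of that list numbered 2 without DKO unstimulated 1, 1 without DKO unstimulated 2 or DKO CpG 1, and 8 without DKO CpG 3. Acod1, the enzyme that makes itaconate, measured 5.89 and 5.70 without CpG and 9.29, 8.68 and 5.79 with it, so DKO CpG 3 lay between the unstimulated arrays. It did not pass the test (2.12 ± 0.89, adjusted p = 0.164) and passed without DKO CpG 3 (3.19, adjusted p = 0.00477).

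Few antigen presentation genes passed the test. None of 22 MHC class I genes was called in limma (3 higher and 1 lower at an unadjusted p under 0.05), with a median of 0.03. Of 24 MHC class II genes 1 fell, the transactivator Ciita at -0.80, and its call ended without DKO unstimulated 1 (adjusted p = 0.0954), DKO unstimulated 2 (0.119), DKO CpG 1 (0.0694) or DKO CpG 2 (0.0618). H2-Ab1 measured 13.65 and 13.58 without CpG and 13.53, 13.62 and 13.68 with it, with groups that overlapped. These levels lay near 13.98, the highest value in the data. Of 37 chromatin modifiers 2 rose and 6 fell, led by Tet2, which oxidises methylcytosine, from 9.56 and 10.03 to 10.94, 11.25 and 10.96 (1.26 ± 0.18); falls numbered 3 without DKO unstimulated 1, 0 without DKO unstimulated 2, 1 without DKO CpG 1 and 2 without DKO CpG 2. Of 24 genes of the unfolded protein response 2 rose and 0 fell (6 and 1 at an unadjusted p under 0.05), and of 19 complement genes 2 rose and 0 fell (5 and 2). These shares of 8.33% and 10.5% lay near the 10.3% of all genes, and both counts were 0 without DKO unstimulated 2 or DKO CpG 2.

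**Figure D5:**
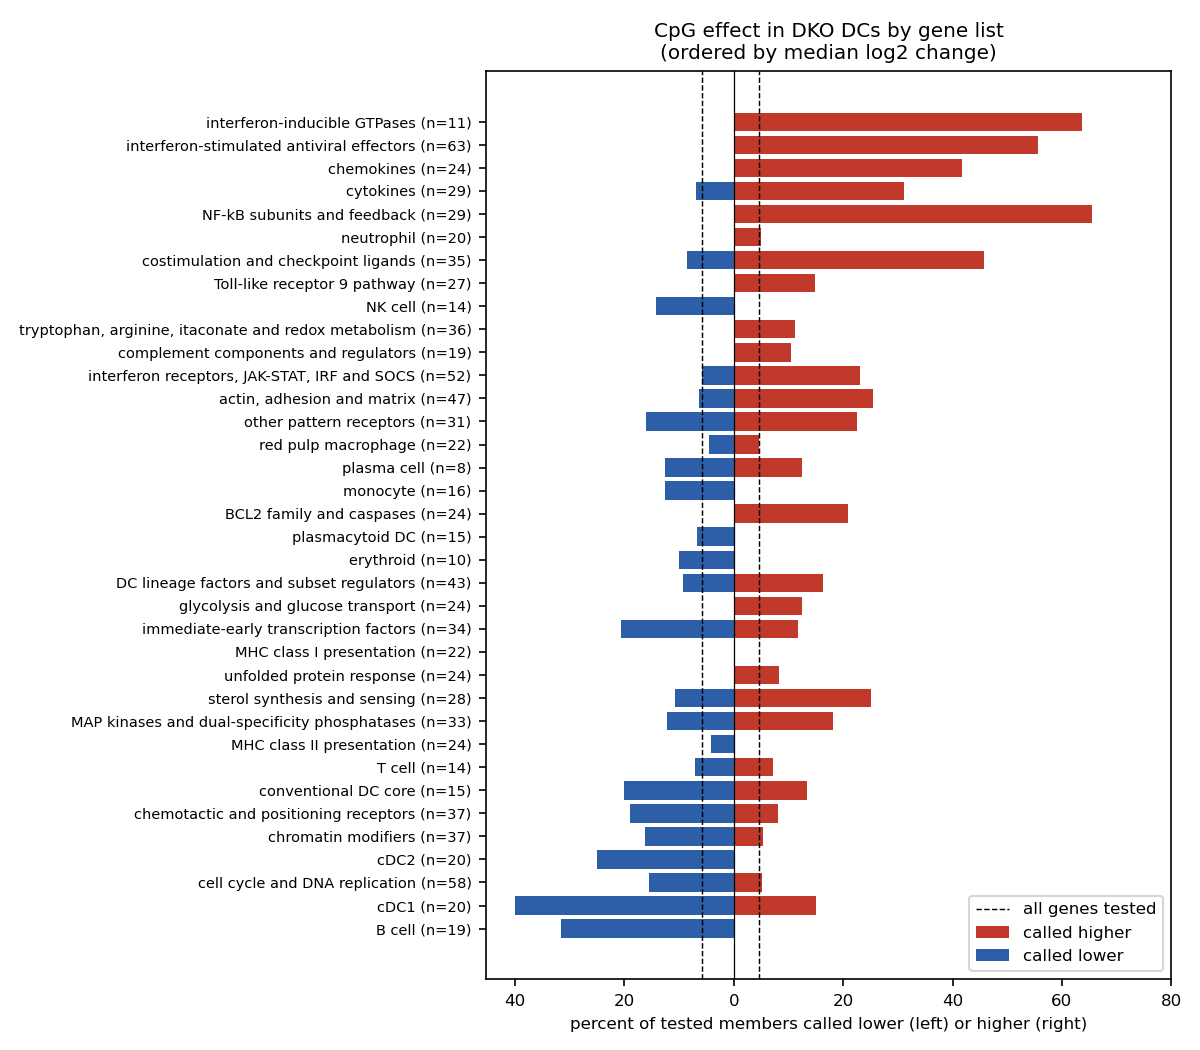
Percent of each list's tested members called higher (red, right of 0) or lower (blue, left of 0) after CpG in the DKO arrays, with lists ordered by median log2 change from the top. Dashed lines mark all genes tested (4.54% higher and 5.76% lower); interferon, chemokine, cytokine, NF-kB and costimulation lists reach far to the right and the B cell and cDC1 lists far to the left.

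Several strong responders lay outside the lists. Gpr31b, a G protein-coupled receptor, went from 8.51 and 7.85 to 10.63, 10.86 and 10.29 (2.42 ± 0.21, adjusted p = 0.000284). Kif1a, a kinesin motor, went from 5.72 and 5.54 to 7.86, 8.22 and 7.75 (2.31 ± 0.22), and Muc1, a membrane mucin, from 5.31 and 5.74 to 8.06, 7.48 and 7.77 (2.24 ± 0.25). Both moved from near the array median to well above it. Dgkh, a diacylglycerol kinase, went from 6.10 and 6.57 to 9.01, 8.29 and 7.96 (2.09 ± 0.26).

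Markers of other cell types differed between single arrays. Of 20 neutrophil markers 1 rose and 0 fell (3 and 1 at an unadjusted p under 0.05), and the median centred level of the list was -0.93 and -1.22 in the DKO unstimulated arrays and 0.07, -0.08 and -1.11 in DKO CpG 1, 2 and 3. S100a9, a granule protein, measured 6.67 and 6.21 and then 8.71, 8.23 and 5.82, and did not pass the test (1.14, adjusted p = 0.382). Thus 2 CpG arrays held more neutrophil signal than either unstimulated array and the third did not, and 6 markers were called higher without DKO CpG 3. The macrophage list stood at 0.33 and -1.13 and then at 0.37, 0.39 and -1.13, with 1 of 22 higher and 1 lower. B cell markers had 6 of 19 lower and 0 higher (11 and 0 at an unadjusted p under 0.05) with a median of -0.56, and Cd22 fell from 8.31 and 8.90 to 6.91, 6.95 and 7.79 (-1.39 ± 0.26), a call lost without DKO unstimulated 2 (adjusted p = 0.0887). B cell falls numbered 0 without that array, 1 without DKO CpG 1 and 2 without DKO CpG 2. In either direction, 1 of 10 erythroid, 2 of 14 NK and 2 of 14 T cell markers were called. So were 2 of 16 monocyte and 2 of 8 plasma cell markers. These counts are small, and every share but the erythroid one lay above the 10.3% of all genes. The T cell list held Cd5, which fell from 8.22 and 8.35 to 6.91, 6.98 and 7.49 (-1.16 ± 0.16), and Il7r. With the neutrophil level as a covariate, 1072 genes were called, 921 of them among the 1377.

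The same treatment in WT mice called more genes, 2885 (21.6%). In total 1136 genes were called in the same direction in both genotypes, which is 82.5% of the DKO calls and 39.4% of the WT calls, and 234 of the 240 genes called in DKO alone had the same sign in WT. The share of all tested genes with the same sign in both genotypes was not counted, so the 234 have no background beside them. The 1 gene called in opposite directions was Prrt2, a synaptic membrane protein, which fell from 6.64 and 6.63 to 6.28, 6.09 and 6.13 in DKO (-0.47 ± 0.12, adjusted p = 0.0369) and rose by 0.56 in WT, and the difference of -1.03 did not pass the test. The DKO call of Prrt2 ended without any 1 of the 5 DKO arrays (adjusted p from 0.0524 without DKO CpG 1 to 0.141 without DKO unstimulated 2). DKO rises had a median of 0.99 in WT and DKO falls a median of -0.77, beside 0.89 and -0.70 in DKO. A call in 1 genotype alone does not show a difference. The difference itself passed for 1 gene (0.00748%; 756 genes at an unadjusted p under 0.05), Tarm1, an activating receptor of myeloid cells. Tarm1 measured 7.51 and 7.39 in the DKO unstimulated arrays and 8.16, 7.64 and 8.36 in the DKO CpG arrays, a change of 0.60 ± 0.18 that did not pass (adjusted p = 0.0606) but passed without DKO CpG 2 (0.81, adjusted p = 0.00695). Its change was 2.86 in WT, and DKO minus WT was -2.25 ± 0.26 (adjusted p = 0.049). That call did not hold without either unstimulated array of either genotype, or without DKO CpG 1, WT CpG 1 or WT CpG 2 (0 genes called in each such fit).

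A few DKO changes stood beside smaller WT values. Uchl3, a deubiquitinase, went from 5.96 and 5.76 to 4.54, 4.47 and 4.63 in DKO (-1.31 ± 0.20, adjusted p = 0.00327) and changed by -0.60 in WT, where it did not pass. Clec4e was called at 3.61 in DKO and stood at 1.75 in WT without passing, and Cxcl2 stood at 2.11 and 1.17 in the same way. Their unstimulated means were higher in WT, at 9.001 against 5.72 for Clec4e and 8.70 against 6.86 for Cxcl2. Neutrophil markers were also higher in WT unstimulated arrays (-0.04 and 0.38) than in DKO ones (-0.93 and -1.22), and their part in these values was not tested. In the other direction, Pdcd1lg2 changed by 1.09 in DKO and 2.44 in WT, Mapk14 by -1.19 and -1.99, and Ifngr1 by -0.85 and -1.64, and none of these differences passed after adjustment. Some rises were alike in size: Tnip3 stood at 3.89 in both genotypes, Gpr31b at 2.42 and 2.41, and Bcl2l11 at 1.91 and 1.93. Others among the 15 largest were less alike, such as Car13 at 2.74 in DKO and 3.30 in WT. Fjx1 stood at 2.46 and 1.66, and neither difference passed after adjustment. The interferon effectors had medians of 1.13 in DKO and 1.78 in WT, and the GTPases 1.15 and 1.53, with no member of either list passing the test of the difference. The DKO medians take in the low DKO CpG 2. By array, DKO CpG 1, 2 and 3 had 1.55, 0.52 and 1.41 for the effectors and 1.68, 0.60 and 1.15 for the GTPases. The part of DKO CpG 2 in the gap to WT was not tested.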

How the data were processed

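The authors deposited log2 intensities for 41345 probe sets of the Affymetrix Mouse Gene 2.0 ST array, for which the submitters' processing notes name Affymetrix Expression Console and RMA. RMA corrects background, normalizes the arrays to a like distribution and summarises the probes of a set on the log2 scale, which compresses differences near background. Versions, genome build and the number of normalization runs were not given in the sources used here. The labels name an amplification kit for a first batch and do not assign samples to it, so batches could not be tested and runs of title numbers stood in for them.

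Of the probe sets, 23521 had exactly 1 gene symbol in the platform annotation, 1814 several and 16010 none, and 23328 of the first matched the reference table by gene identifier. For the 1082 genes with over 1 such set, the set with the highest mean over 10 arrays was kept, giving 22180 genes. A gene was tested where it exceeded the array's median in at least 2 arrays, which left 13371. In limma 3.58.1 (lmFit and eBayes, R 4.3.3), 4 group means were fitted to all 10 arrays (6 residual and 4.49 prior degrees of freedom), since the DKO arrays alone leave little to estimate the spread. Tests were two-sided with Benjamini-Hochberg adjustment over 13371 genes. The number of arrays limits the precision, with a median standard error of 0.15 for the DKO contrast. Simulated data had independent normal noise per gene, with 100 genes changed by 1 on the log2 scale and 100 changed by 0.585 (log2). The fit recovered 84% of the first and 24% of the second, with 5 false calls. The real arrays also differed in sets of genes together and gave far more calls, so these rates need not hold for them.

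Genes named are the targeted pair, the 15 largest rises and falls, members of the gene lists, the 10 largest further rises and falls, genes called in DKO and not in WT, and genes of the test of the difference; predicted genes, small RNAs and immunoglobulin variable segments were left out of the rule. Replicate numbers only name arrays. The gene lists and the comparison were chosen with earlier results of these data known. Alternatives covered single arrays left out, the DKO arrays alone, filters, scalings, covariates and the choice of probe set. Plots used Python 3.11.15 and matplotlib 3.10.9.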

Additional observations from a re-analysis of the deposited data

Results flagged for a closer look

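The CpG effect on Tarm1 differed between the genotypes in the test of the difference itself, by -2.25 (log2, DKO minus WT). That call did not hold with the title series as a block or after quantile normalization. It was also lost with the neutrophil or the macrophage marker level as a covariate. The CpG effect on Prrt2 had opposite signs, lower in every DKO array and higher in every WT array after CpG. Its difference of -1.03 did not pass the test of the difference. Outside the named genes, 19 of 8833 tested probe sets with no symbol or several passed the test of CpG in DKO (0.215%), 12 higher and 7 lower.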

How the results depend on the processing

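Limits come first from the number of arrays. With 2 DKO unstimulated arrays, leaving out 1 leaves a lone array assumed to vary like the other groups, and the count of 1377 ranged from 423 to 1909 over the fits without 1 array each. The count at 2-fold or more, 381, ranged from 242 to 553, and the count for the difference between genotypes, 1, from 0 to 1. DKO arrays alone gave 402 calls and 247 at 2-fold or more, and an adjusted p under 0.01 left 432 calls and 0 for the difference. The difference count was also 0 with the title series as a block, with the neutrophil or the macrophage marker level as a covariate, and after quantile normalization. The block on the title series gave 1757 calls, the Y-linked covariate 1902, the macrophage covariate (chosen after seeing the data) 1671, no filter 1085 and median centring 1268, all within 1.5 times of the main count. No called gene changed sign under any of these settings. Of single genes not called, C3ar1 ranged from -0.14 to 0.24 over the fits without 1 array and was -0.014 with the macrophage covariate, and C5ar1 was -0.12 with the neutrophil covariate. No paired analysis was possible because the labels give the groups no shared replicate numbers; the block on the title series, given above, compares arrays within runs of titles instead. Values near the array median may be near background, since no detection calls were used.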

Other observations

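Immunoglobulin variable segments lay outside the naming rule and were looked at after their values were seen. Of 11 tested, 3 rose and 0 fell in DKO, with a median of 0.40, and 0 were called in WT, with a median of 0.33. Igkv4-59 stood at 5.59 and 4.30 without CpG and at 8.64, 11.21 and 9.55 with it, a rise of 4.85 ± 0.80 (adjusted p = 0.00511, and 0.0574 without DKO unstimulated 2). Igkv4-70 rose by 3.81 (adjusted p = 0.00509, and 0.0549 without DKO unstimulated 2), and Igkv4-72 went from 7.11 and 6.71 to 9.46, 11.46 and 10.31 (3.50 ± 0.57). All 3 rises were highest in DKO CpG 2, and segments of 1 family share sequence, so they are not separate measurements. Other families stood lower after CpG in every DKO array without passing: a segment of the Igkv1 family went from 8.74 and 8.66 to 6.02, 6.62 and 6.95 (-2.17, adjusted p = 0.0567) and was 1.28 in WT, and Igkv9-120 went from 8.58 and 10.29 to 6.21, 7.12 and 8.28 (-2.23, adjusted p = 0.0822) and was 0.22 in WT. Jchain, which joins secreted IgM and IgA, was also highest in DKO CpG 2, at 8.10 and 7.80 and then 8.31, 10.76 and 8.66, and did not pass the test (1.30, adjusted p = 0.234). The difference from WT for Igkv4-59 did not pass the test (adjusted p = 0.734).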
